A study of Mus musculus with 11 samples.

Results

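The family of miR-34 and miR-449 was followed through mouse sperm, oocytes and early embryos as 6 mature microRNA (miRNA) arms, taken by name from the count table: mmu-miR-34a-5p, mmu-miR-34b-5p, mmu-miR-34b-3p, mmu-miR-34c-5p, mmu-miR-34c-3p and mmu-miR-449a-5p, written below without the species prefix. They are 6 of 2304 features (1592 mature miRNAs and 712 endogenous siRNAs) counted in 11 libraries. All mice were adult and on the C57BL/6 background. Sperm from the cauda epididymis came from wild-type (WT) males in 2 libraries, from males whose germ line carried a conditional knockout (cKO), of Dicer for 2 libraries and of Drosha for 3 libraries. Oocytes of superovulated WT females gave 1 library. Embryos at the 2PN stage, in which the maternal and paternal pronuclei are still separate, were made by injecting WT, Dicer cKO or Drosha cKO sperm into oocytes and gave 1 library for each kind of sperm. No source used here names the Cre driver, and no label ties replicate libraries to different mice. The p-values therefore reflect only how far these samples differ, which may be technical. Messenger RNA was not measured, so the knockouts were not checked at the level of their target genes.

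A miRNA is cut from a longer transcript in steps: Drosha releases a hairpin in the nucleus, and Dicer trims the loop in the cytoplasm to leave a short duplex whose strands are named 5p and 3p. One strand usually loads into an Argonaute protein, and bases 2 to 8 of that strand, the seed, select its target messages. miR-34a is widely expressed and is a known target gene of p53. The miR-34b/c and miR-449 transcripts are known instead from ciliated epithelia and from male germ cells in meiosis and later, where the miR-34b/c and miR-449 loci can stand in for each other, and miR-34c has been described as a miRNA that sperm carry into the egg.

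Sequences are shown to make plain which arms share a seed, with the seed in capitals, 5′ to 3′. They were taken from RefSeq on GRCm38.p6, where 5 of the 6 members were matched and miR-34c-5p was not.
miR-34a-5p: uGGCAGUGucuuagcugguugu
miR-34b-5p: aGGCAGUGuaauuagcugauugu
miR-449a-5p: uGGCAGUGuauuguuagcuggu
miR-34b-3p: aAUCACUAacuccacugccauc
miR-34c-3p: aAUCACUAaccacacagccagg

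The matched 5p arms carried the seed GGCAGUG, and among the listed features with a RefSeq sequence this seed also occurred in miR-449c-5p, 4 features in all. Both 3p members carried another seed, AUCACUA, which occurred in no other listed feature with a sequence. Counted from the 5′ end without gaps, miR-34a-5p and miR-449a-5p were identical at 15 of 22 positions and miR-34a-5p and miR-34b-5p at 11 of 22. miR-34b-5p is longer, at 23 bases, and an alignment with gaps, which could match more positions, was not made. The counts therefore do not rank the arms by likeness. The 3p arms of miR-34b and miR-34c were identical at 17 of 22 positions, and their 5 differences (U11C, C12A, U16A, U21G and C22G, from miR-34b-3p to miR-34c-3p) all lay outside the seed. No source used here says how reads that match more than one arm were counted.

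The members come from 3 places in the genome. The Mir34a hairpin lies on chromosome 4 at 150068454 to 150068555 on the plus strand, outside the span of any other gene in the RefSeq table. The Mir34b and Mir34c hairpins lie on chromosome 9 at 51103562 to 51103645 and 51103034 to 51103110 on the minus strand, 451 bases apart, within the annotated spans of Hoatz and Btg4. The Mir449a hairpin lies on chromosome 13 at 113037534 to 113037624 on the plus strand, within the span of Cdc20b, with Mir449b 35 bases and Mir449c 1442 bases away. The Mir34b hairpin is shown because its more frequent arm was the 5p arm in sperm and the 3p arm in oocytes and embryos, as given further on. Here the capitals mark the 5p arm and then the 3p arm.
Mir34b hairpin: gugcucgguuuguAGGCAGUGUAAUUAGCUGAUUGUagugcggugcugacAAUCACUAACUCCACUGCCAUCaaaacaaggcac

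Listed reads numbered 73377 and 278890 in WT sperm, 122989 and 108141 in sperm of the Dicer cKO, 100934, 12003 and 15921 in sperm of the Drosha cKO, and 2951 to 8967 in the oocyte and 2PN libraries. Levels are given as CPM, a count divided by the listed reads of its library and scaled to 1e+06, or as percent of listed reads. Changes between sperm groups are log2 changes from edgeR's quasi-likelihood test, fitted to the whole table with TMM scaling. In that fit 335 features passed the low-count filter, and all 6 members passed. CPM and TMM-scaled changes are both relative to the other listed features of the same libraries. A rise or fall below is thus a relative one, and the amount of a miRNA in a cell was not measured. Marker miRNAs were set against the label of sperm. Those of the X-linked testis cluster near Fmr1 made up 7.23% and 6.29% of listed reads in WT and 0.527% to 0.992% in cKO sperm. Epithelial markers (5 arms of miR-200, miR-141 and miR-429) made up 1.57% and 1.81% in WT and 11.04% to 16.05% in cKO sperm. No marker list for oocytes was used.

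WT sperm was rich in 5 of the 6 arms. The family summed to 18.2% and 16.3% of listed reads in the WT replicates, from 13320 and 45548 reads. By reads, miR-34b-5p held ranks 3 and 2 among all features, miR-34c-5p ranks 4 and 5, miR-34b-3p ranks 6 and 13, miR-449a-5p ranks 24 and 16, and miR-34c-3p ranks 33 and 32. miR-34a-5p stood apart at ranks 101 and 106. In the cKO libraries the family held less, 1.34% and 1.26% in sperm of the Dicer cKO and 2.90%, 1.74% and 2.37% in sperm of the Drosha cKO, and no cKO library reached the lower WT library.

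**Figure D1:**
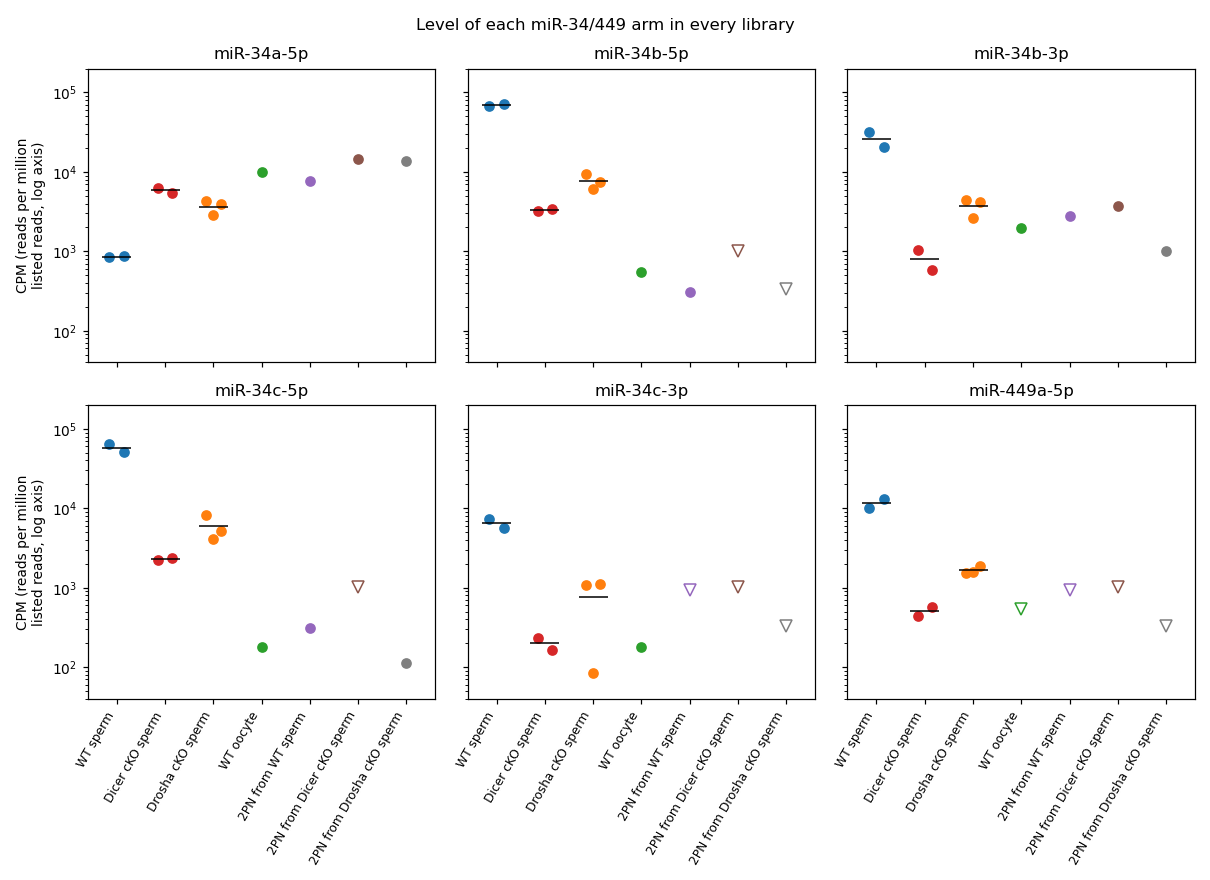
Level of each arm in every library, in CPM on a log axis; points are libraries, black lines are means of the sperm groups, and open triangles stand at 3 reads in libraries where the arm had 0 reads. miR-34a-5p is lowest in WT sperm (845 and 864 CPM), whereas the other 5 arms are highest there.

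The first comparison asked which arms changed in sperm when Dicer was deleted in the male germ line. 5 of the 6 members fell and miR-34a-5p rose. Of all tested features 47.2% were called, 31% as lower and 16.1% as higher, so a called member is not unusual in itself. All 6 members had an unadjusted p under 0.05 in edgeR, as did 52.2% of features. The median log2 change over the members was −5.30, against 0.03 over all features tested.

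miR-34b-5p, the most abundant member in WT sperm, stood at 66792 and 72584 CPM in WT and at 3179 and 3458 CPM in sperm of the Dicer cKO. The groups were far apart and the duplicates close together. Groups that do not overlap were found for 81.2% of all tested features here. The mean was 21-fold lower in CPM, and the log2 change was −5.13 (SE 0.533, edgeR adjusted p = 5.11e-06). miR-34c-5p, cut from the neighbouring hairpin, stood at 64993 and 50823 CPM in WT and at 2228 and 2395 CPM in sperm of the Dicer cKO. Its duplicates in sperm of the Dicer cKO also lay close together, and its log2 change was −5.31 (SE 0.551, edgeR adjusted p = 5.11e-06).

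The 3p arms of the same hairpins were lower as well. miR-34b-3p stood at 31427 and 20424 CPM in WT and at 1041 and 583 CPM in sperm of the Dicer cKO, with no overlap (edgeR: log2 change −5.62 with SE 0.582, adjusted p = 5.11e-06). miR-34c-3p, the scarcer strand, stood at 7400 and 5644 CPM in WT and rested on 29 and 18 reads in sperm of the Dicer cKO (edgeR: log2 change −5.67 with SE 0.835, adjusted p = 0.00012). miR-449a-5p, from the other chromosome but with the seed of the 5p arms, stood at 10071 and 12980 CPM in WT and at 439 and 573 CPM in sperm of the Dicer cKO. It fell with a log2 change of −5.28 (SE 0.62, edgeR adjusted p = 1.62e-05), close to the values of the miR-34b/c arms.

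miR-34a-5p went the other way. It stood at 845 and 864 CPM in WT and at 6285 and 5400 CPM in sperm of the Dicer cKO, 6.84-fold higher in the mean. The log2 change with TMM scaling was 2.04 (SE 0.562, edgeR adjusted p = 0.007). The call was lost without WT replicate 1 (log2 change 1.67, edgeR adjusted p = 0.0651) and without Dicer cKO replicate 1 (1.62, edgeR adjusted p = 0.147).

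The second comparison asked the same of Drosha. Again 5 of the 6 members fell, and miR-34a-5p, although higher in the mean, did not pass the test. Here 55.2% of all tested features were called, 33.1% as lower and 22.1% as higher. An unadjusted p under 0.05 in edgeR was found for all 6 members and for 60.9% of features. The comparison shares its WT libraries with the first. The median log2 change was −3.87 over the members and 0.05 over all features tested.

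miR-34b-5p stood at 9303, 6082 and 7412 CPM in the Drosha cKO replicates, all below both WT libraries. Groups did not overlap for 72.2% of all tested features. The mean of miR-34b-5p was 9.17-fold lower than in WT, and the log2 change was −4.18 (SE 0.433, edgeR adjusted p = 9.9e-06). miR-34c-5p stood at 8342, 4166 and 5213 CPM and fell with a log2 change of −4.19 (SE 0.443, edgeR adjusted p = 9.9e-06). Replicate 1, the most deeply sequenced of the Drosha cKO libraries, was the highest of the 3 for both of these arms.

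miR-34b-3p stood at 4458, 2666 and 4146 CPM (edgeR: log2 change −3.65 with SE 0.453, adjusted p = 2.38e-05). miR-34c-3p was the least certain value, at 1070, 83.3 and 1131 CPM from 108, 1 and 18 reads (edgeR: log2 change −3.91 with SE 0.662, adjusted p = 0.000228). The single read belonged to replicate 2, which held 12003 listed reads. miR-449a-5p was even across the replicates, at 1546, 1583 and 1884 CPM, and its log2 change was −3.82 (SE 0.499, edgeR adjusted p = 4.02e-05).

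miR-34a-5p stood at 4280, 2833 and 3894 CPM in sperm of the Drosha cKO, each above both WT libraries and 4.29-fold higher in the mean. The log2 change with TMM scaling was 1.13 (SE 0.518, edgeR adjusted p = 0.0738). It passed the test with library totals alone (2.11, edgeR adjusted p = 0.00162) and without Drosha cKO replicate 2 (1.41, edgeR adjusted p = 0.0249). The log2 change was 0.33 without WT replicate 1 (edgeR adjusted p = 0.752), and with replicate 1 or replicate 2 of the Dicer cKO left out it was 0.56 or 0.59 (edgeR adjusted p = 0.543 or 0.509). Scaled by the authors' own divisor the values were 18.2 and 86.9 RPM in WT and 115, 82.4 and 82.2 RPM in sperm of the Drosha cKO, and these groups overlapped.

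The WT replicates differed more in the authors' RPM than in CPM for every member. miR-34b-5p stood at 1440 and 7298 RPM in WT, 141 and 242 RPM in sperm of the Dicer cKO, and 251, 177 and 156 RPM in sperm of the Drosha cKO. Listed reads were 2.16% of the divisor in WT replicate 1 and 10.1% in WT replicate 2, so the choice of denominator moves all features of a library together. The order of WT above cKO held for miR-34b-5p in either unit.

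**Figure D2:**
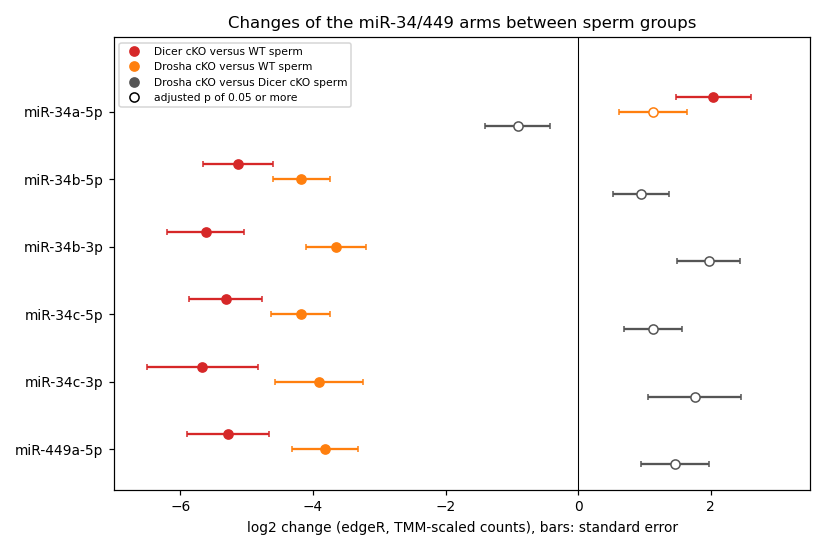
Log2 changes of the 6 arms in the 3 sperm comparisons from edgeR, with standard errors as bars; filled points passed an adjusted p of 0.05. In both comparisons with WT the miR-34b, miR-34c and miR-449a arms lie between −5.67 and −3.65, and miR-34a-5p lies above 0.

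The third comparison set the knockouts against each other. 5 members stood higher with the Drosha cKO than with the Dicer cKO and miR-34a-5p stood lower, but none passed the test. By edgeR 0 of 335 features were called, a share of 0%, and 65 features (19.4%), of which 5 were members, had an unadjusted p under 0.05. Those 5 members are not independent observations, as their levels correlated at r of 0.903 to 0.997 over the sperm libraries. The median log2 change was 1.29 over the members and −0.01 over all features tested. The largest difference was that of miR-34b-3p, 4.63-fold higher in mean CPM in sperm of the Drosha cKO (edgeR: log2 change 1.97 with SE 0.477, adjusted p = 0.0694), and the smallest among the 5 higher members was that of miR-34b-5p (0.95, SE 0.425, edgeR adjusted p = 0.232). The log2 changes of miR-34c-5p, miR-34c-3p and miR-449a-5p lay between these, at 1.13, 1.76 and 1.46. miR-34a-5p had a log2 change of −0.91 (SE 0.49, edgeR adjusted p = 0.31). All members except miR-34c-3p had groups that did not overlap in CPM, as did 39.1% of all tested features.

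The outcome of this comparison depended on the setting. DESeq2 called 1 member and 16 features, and limma on RPM called 0 members and 2 features. The count of members was 4 with library totals alone and 4 without WT replicate 2. It was 2 without Drosha cKO replicate 2, and 1 without WT replicate 1, with only the groups compared or with the replicate number as a block. miR-34b-3p was among those called in each of these cases, with log2 changes from 1.52 to 2.22. Over all alternatives its log2 change went down to 1.09. With the authors' RPM divisor the difference was 0.03 for miR-34b-5p, 0.20 for miR-34c-5p and 1.14 for miR-34b-3p, and with limma on RPM it was 0.05, 0.16 and 1.09. Over all features the count rose to 36 without WT replicate 1, 39 without WT replicate 2, 7 without Drosha cKO replicate 2 and 1 without Dicer cKO replicate 1.

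The balance between members needs no scaling between libraries, and 5 such ratios were compared between the 2 WT and the 5 cKO libraries. miR-34b-5p exceeded miR-34c-5p in every sperm library, at 1.03 and 1.43 times its reads in WT, 1.43 and 1.44 times in Dicer cKO and 1.12, 1.46 and 1.42 times in sperm of the Drosha cKO. WT replicate 1 and Drosha cKO replicate 1 had the lowest of these ratios. The log2 ratio was 0.17 higher in cKO sperm, which was within the spread of the libraries (exact permutation test, two-sided, p = 0.381, adjusted p = 0.794).

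miR-449a-5p was a smaller part of the pool, at 0.155 and 0.255 times miR-34c-5p in WT, 0.197 and 0.239 times in Dicer cKO and 0.185, 0.38 and 0.361 times in sperm of the Drosha cKO. The groups overlapped (log2 difference 0.40, exact permutation p = 0.476, adjusted p = 0.794). Replicates 2 and 3 of the Drosha cKO, from 19 and 30 reads of miR-449a-5p, had the highest ratios.

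The ratio of miR-34a-5p differed far more. It amounted to 0.013 and 0.017 times miR-34c-5p in WT, 2.82 and 2.25 times in Dicer cKO, and 0.513, 0.68 and 0.747 times in sperm of the Drosha cKO. The 3 genotypes did not overlap. The log2 ratio was 6.21 higher in cKO sperm, and all 5 cKO libraries lay above both WT libraries. The exact permutation p was 0.0476, the smallest that 21 arrangements allow, and 0.238 after adjustment over the 5 ratios. A single ratio could thus not pass after adjustment.

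The make-up of the family differed accordingly. miR-34a-5p made up 0.465% and 0.529% of the family's reads in WT sperm, 46.9% and 42.9% in sperm of the Dicer cKO and 14.8%, 16.3% and 16.4% in sperm of the Drosha cKO. miR-34b-5p and miR-34c-5p together had led in WT, at 36.8% and 35.8% in replicate 1 and 44.4% and 31.1% in replicate 2.

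**Figure D3:**
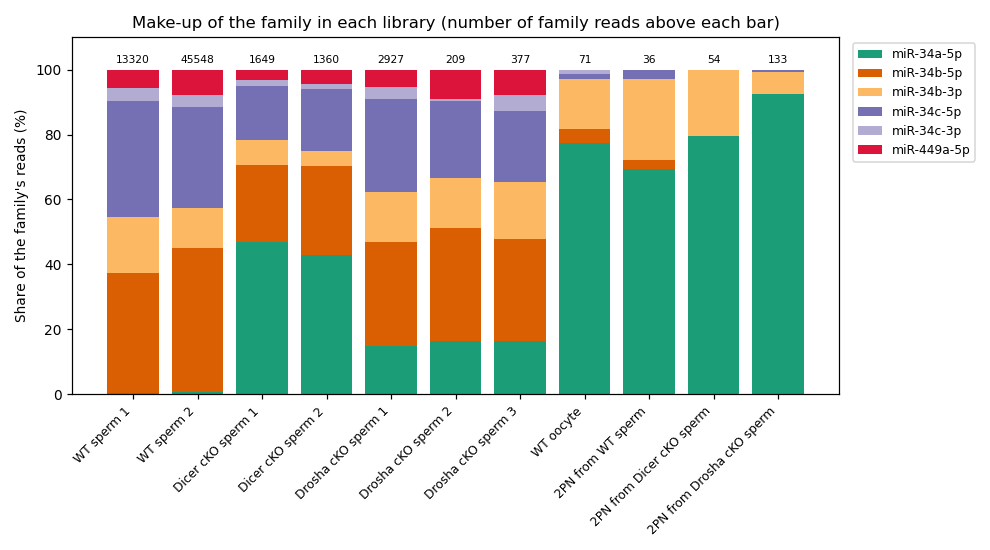
Share of each arm in the family's reads, in percent, one bar for each library, with the number of family reads above it. The miR-34a-5p segment is under 1% of the bar in WT sperm, 42.9% to 46.9% in sperm of the Dicer cKO, 14.8% to 16.4% in sperm of the Drosha cKO and at least 69.4% in the oocyte and 2PN libraries.

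The strands of each hairpin were compared next. In every sperm library the 5p arm of miR-34b outnumbered the 3p arm. miR-34b-3p took 32.0% and 21.96% of miR-34b reads in WT, 24.7% and 14.4% in Dicer cKO and 32.4%, 30.5% and 35.9% in sperm of the Drosha cKO. WT overlapped each knockout, but the knockouts did not overlap each other. How often arm shares of other hairpins separate in this way was not computed. The mean log2 ratio of the 5p to the 3p arm was 1.46 in WT, 2.08 in Dicer cKO and 1.02 in sperm of the Drosha cKO. With the cKO libraries pooled, the difference from WT was −0.01 (exact permutation p = 0.952, adjusted p = 0.952). The knockouts lay on opposite sides of WT, so the pooled test cannot show a shift in either, and the difference between them was not tested. miR-34c-3p took 10.2% and 9.995% of miR-34c reads in WT, 9.57% and 6.50% in Dicer cKO and 11.4%, 1.96% and 17.8% in sperm of the Drosha cKO. The outer values among these belonged to the shallow Drosha cKO libraries, with 51 and 101 miR-34c reads (log2 difference 0.29, exact permutation p = 0.714, adjusted p = 0.893).

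Arms of the same hairpins outside the 6 members were rare. miR-34a-3p had at most 4 reads in any library and miR-449a-3p at most 2. miR-449c-5p, which has the seed of the 5p members, had 2 reads in each WT sperm library and 0 in all other libraries. miR-449b had 0 to 4 reads, and miR-449c-3p 0 to 8. None of these 5 arms passed the low-count filter, so none was tested.

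The oocyte and 2PN libraries gave another picture, with miR-34a-5p as the leading member. miR-34a-5p made up 0.995% of listed reads in the oocyte library (55 reads, 95% exact interval 0.75 to 1.29) and 0.771% in 2PN embryos from WT sperm (25 reads, 0.499 to 1.14). It made up 1.46% in 2PN embryos from Dicer cKO sperm (43 reads, 1.06 to 1.96) and 1.37% in those from Drosha cKO sperm (123 reads, 1.14 to 1.63). It held ranks 12, 16, 7 and 9 among all features in these libraries, against 101 and 106 in WT sperm, where it made up 0.0845% and 0.0864%. In the authors' RPM it stood at 48.6, 28.8, 28.6 and 101 in these libraries and at 18.2 and 86.9 in WT sperm. These ranges overlapped, so the higher level depends on the denominator. Each oocyte or 2PN library is the only one of its kind, and the intervals cover counting error only.

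miR-34c-5p, at 6.50% and 5.08% of listed reads in WT sperm, gave 1 read in the oocyte library and 1, 0 and 1 reads in 2PN embryos from sperm of the WT, the Dicer cKO and the Drosha cKO. A count of 0 in the embryos from Dicer cKO sperm allows a share of up to 0.102%. miR-34b-5p gave 3 reads in oocytes and 1, 0 and 0 in the embryos, and miR-34c-3p 1 read in oocytes and 0 in the embryos. miR-449a-5p had 0 reads in all 4 libraries, which allows up to 0.0542% in the oocyte and 0.0335% to 0.102% in the 2PN libraries. A difference between embryos from WT and from cKO sperm in these 4 arms was not detectable at this depth.

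miR-34b-3p was the exception among the chromosome 9 arms. It had 11 reads in the oocyte library and 9, 11 and 9 reads in the 2PN embryos from sperm of the WT, the Dicer cKO and the Drosha cKO, or 0.199%, 0.278%, 0.373% and 0.1% of listed reads. It therefore took 78.6% of miR-34b reads in oocytes (11 of 14, 95% exact interval 49.2 to 95.3), 90.0% in embryos from WT sperm (9 of 10, 55.5 to 99.8), and all 11 and all 9 reads in embryos from Dicer cKO and Drosha cKO sperm (lower limits 71.5 and 66.4). Summed over the 4 libraries it was 40 of 44 reads, or 90.9% (78.3 to 97.5), whereas no sperm library exceeded 35.9%. Within the miR-34b hairpin, the seed of the more frequent arm in these libraries was thus AUCACUA in place of GGCAGUG. Over the whole family the leading arm was still miR-34a-5p, which has the seed GGCAGUG.

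**Figure D4:**
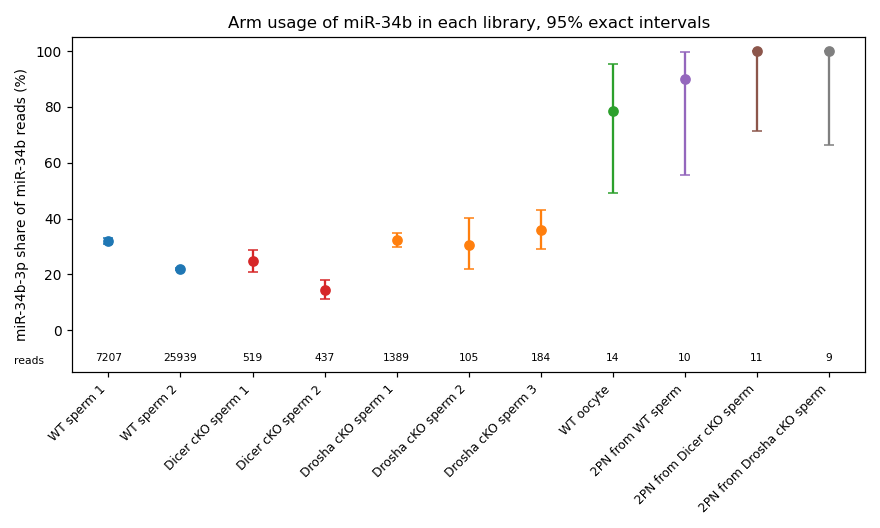
Share of miR-34b reads that were the 3p arm, in percent, with 95% exact intervals and the number of miR-34b reads under each point. The 7 sperm libraries lie between 14.4% and 35.9%, and the oocyte and 2PN libraries lie between 78.6% and 100%.

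The family as a whole made up 1.28% of listed reads in the oocyte library and 1.11% in the embryos from WT sperm. The ratio of embryo to oocyte was 0.865 in CPM (95% exact interval 0.562 to 1.31) and 0.661 in the authors' RPM. The ratio of embryos from Dicer cKO sperm to those from WT sperm was 1.65 in CPM (1.06 to 2.59) and 0.865 in the authors' RPM. For embryos from Drosha cKO sperm it was 1.34 in CPM (0.919 to 1.99) and 2.63 in RPM. miR-34a-5p carried most of these reads, with ratios of 1.89 and 1.78 in CPM and of 0.992 and 3.51 in RPM. The other 5 members, mostly miR-34b-3p, went the other way in embryos from Drosha cKO sperm, with 10 reads against 11 in embryos from WT sperm and a ratio of 0.329 in CPM (0.125 to 0.853) and 0.648 in RPM. In embryos from Dicer cKO sperm their ratio was 1.10 in CPM (0.432 to 2.80) and 0.577 in RPM. The direction of the family for embryos from Dicer cKO sperm thus turned with the denominator, and no test was possible with 1 library of each kind.

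Likeness to other features was described over the 7 sperm libraries by Pearson's r of log2 CPM across 329 tested features outside the family, which share library, depth and groups. Closest to miR-34c-5p were miR-741-3p (r = 0.994), miR-184-3p (0.992), miR-18a-5p (0.99), miR-880-3p (0.988) and miR-743a-3p (0.987), of which 3 belong to the X-linked testis cluster; the median of all features was −0.04. Closest to miR-34a-5p were miR-144-5p (0.983), miR-21a-5p (0.957), miR-141-3p (0.954), miR-126a-5p (0.943) and miR-221-3p (0.942), with a median of 0.11. Within the family, r lay between 0.903 and 0.997 among the 5 arms of miR-34b, miR-34c and miR-449a, and between −0.874 and −0.692 between miR-34a-5p and each of them. These correlations do not separate differences between the 3 groups from variation within them.

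Other lists of miRNAs moved with the members. Over all tested features, 31% were called lower and 16.1% higher with the Dicer cKO, and 33.1% and 22.1% with the Drosha cKO. All 27 of the 35 X-linked testis miRNAs that could be tested fell in both cKO comparisons with WT, with a median log2 change of −4.29 in Dicer cKO and −4.15 in sperm of the Drosha cKO, next to −5.30 and −3.87 over the members. The low-count filter can be passed on reads in the WT libraries alone. Arms high in WT were thus favoured for testing, and the count of falls is in part set by the filter. Between the knockouts the cluster's median was −0.01, and edgeR called 0 of the 27, with 1 at an unadjusted p under 0.05. All 5 epithelial markers rose in both comparisons with WT, with medians of 2.498 and 1.844; miR-200c-3p changed by 2.24 and 1.84. Of 6 blood cell markers 4 rose in sperm of the Dicer cKO, and 4 rose and 1 fell in sperm of the Drosha cKO. Their sum went from 0.523% and 0.51% of listed reads in WT to 5.02% and 5.004% with the Dicer cKO, and it lay between 2.14% and 2.47% with the Drosha cKO, and miR-451a, a red cell miRNA, changed by 3.07 and 1.41. Of 5 stromal markers 2 rose in Dicer cKO and 0 in sperm of the Drosha cKO by edgeR, where 0 had an unadjusted p under 0.05. The stromal sum was nevertheless higher in every cKO library, at 1.08% to 2.61% of listed reads against 0.79% and 0.31% in WT. All 5 epithelial, 5 stromal and 6 blood markers had reads in every sperm library. These markers, miR-451a among them, are miRNAs themselves, and whether either knockout acted on them directly was not tested. The part of the markers in the result, the fall of the miR-34b/c and miR-449a arms or the higher miR-34a-5p, was not tested. Fewer germ cells in a sample and less of a miRNA in each germ cell cannot be told apart in these libraries.

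**Figure D5:**
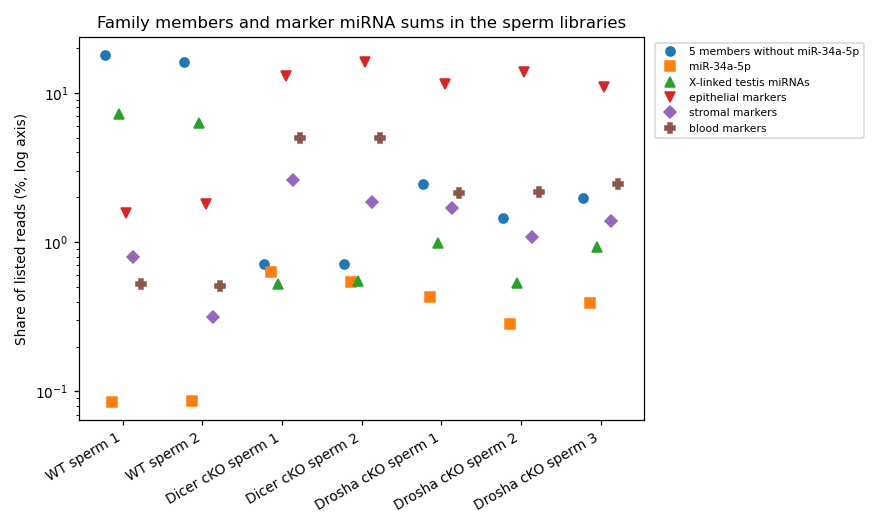
Share of listed reads, in percent on a log axis, in each sperm library for the 5 members without miR-34a-5p, for miR-34a-5p and for 4 lists of marker miRNAs. The 5 members go from 18.1% and 16.2% in WT to 0.712% to 2.47% in cKO sperm, with the X-linked testis miRNAs. miR-34a-5p and the epithelial, stromal and blood markers are higher in every cKO library than in WT.

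The oocyte and 2PN libraries held 0 to 4 epithelial and 0 to 1 blood reads each. Stromal markers had 6 reads in the oocyte library and 13, 5 and 14 reads in 2PN embryos from sperm of the WT, the Dicer cKO and the Drosha cKO, and the 0.401% in embryos from WT sperm lay above the 0.315% of WT sperm replicate 2. miR-34a-5p had 25 to 123 reads in these libraries, and the part of the stromal markers in that was not tested. Of 8 tested miRNAs that, like miR-34a, are linked to p53, 2 fell and 3 rose with the Dicer cKO, and 3 fell and 1 rose with the Drosha cKO. These 5 and 4 calls stand beside 47.2% and 55.2% of all tested features called. The list shares miR-200c-3p with the epithelial list and miR-143-3p and miR-145a-5p with the stromal list. miR-16-5p, whose processing p53 is known to promote, changed by −2.66 (SE 0.588) and −3.13 (SE 0.516), and miR-200c-3p by 2.24 (SE 0.444) and 1.84 (SE 0.415). The median of the list was −0.90 with the Dicer cKO and −0.07 with the Drosha cKO. A part of p53 in the level of miR-34a-5p was not tested.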

How the data were processed

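Small RNA was sequenced in 11 libraries. The deposited raw read counts and the authors' table of RPM values were used. In the latter each count is divided by 1 whole number per library (412523 to 3743577), whose meaning the sources used here do not give. Bowtie and mm10 are named in the submitters' processing notes; versions, the counting rule and the handling of shared reads are not given there. Counts of the 7 sperm libraries were fitted in edgeR 4.0.16 under R 4.3.3 (TMM factors, default expression filter, quasi-likelihood test, two-sided, Benjamini-Hochberg adjustment over 335 features, threshold 0.05), after a check on simulated counts. Standard errors are the log2 change over the square root of F. DESeq2 1.42.0, limma 3.58.1 on log2(RPM + 1), other scalings and filters, and leaving out libraries were alternatives. Ratios of members used log2 with 0.5 reads added and an exact permutation test over libraries, with Benjamini-Hochberg adjustment over 5 ratios. Intervals are 95% exact (Clopper-Pearson) and, like the limit of 3 reads for a count of 0, cover counting error only. TMM factors were 0.899 and 0.497 in WT and 1.05 to 1.30 in cKO sperm, so TMM-scaled falls exceed those in CPM. Duplicate libraries differed beyond counting error (chi-square per degree of freedom 5.74 to 42.0). Named features were all members, the other arms of their hairpins, the 5 features most like miR-34c-5p and miR-34a-5p, and up to 2 abundant members of each list. Members and lists were chosen with earlier results of these data known. Coordinates and sequences came from RefSeq on GRCm38.p6; the genome supplied is of a different build and stayed unused.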

Additional observations from a re-analysis of the deposited data

How the results depend on the processing

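Over 18 alternatives in each comparison, the miR-34b, miR-34c and miR-449a arms kept their direction and call against WT, with log2 changes from −6.47 to −4.13 in Dicer cKO and from −5.01 to −2.77 in Drosha cKO sperm; scaling by library totals alone moved the median of all features from 0.03 to 0.62 and from 0.05 to 1.04. The count of members called was within 1.5 times the main count in both. Without a low-count filter, 112 of 2186 features were called in Drosha cKO sperm, in place of 185 of 335; more features were tested in that fit. Between the knockouts, 0 members and 0 features were called in the main analysis. The counts were 4 and 13 with library totals alone, 1 and 16 with DESeq2, 1 and 31 with only the groups compared, and 1 and 8 with the replicate block. Only features were called with the authors' RPM divisor (1), without a filter (1), at 10 CPM in 2 libraries (4) and with limma (2). Leaving out 1 library gave 0 to 4 members and 0 to 39 features. The cause was not tested. Numbers 1 and 2 occur in all 3 sperm groups. Deviations from the group mean correlated at 0.181 to 0.312 between libraries of the same number and at −0.312 to 0.079 between others. In a group of 2 libraries these deviations mirror each other, so the second range in part follows from the first. With 2 pairs in each comparison and no label on what a number marks, the pairing was not settled. The replicate block stayed an alternative. None of the 5 ratios passed the exact permutation test after adjustment, and 1 ratio alone could not pass even at the smallest p. For some of the ratios the difference between cKO and WT sperm changed sign. For the log2 ratio of miR-34b-5p to miR-34c-5p the difference, cKO minus WT, ranged from −0.065 to 0.410 with 1 library left out. For miR-34c-5p to miR-34c-3p it ranged from −0.112 to 0.613. For miR-34b-5p to miR-34b-3p it ranged from −0.382 to 0.360, and it was 0.625 without the Drosha cKO libraries. Leaving out libraries raises the smallest p for ratios to between 0.0667 and 0.333. In RPM the family ratio was 0.865 for embryos from Dicer cKO sperm and 2.63 for embryos from Drosha cKO sperm. Depth limits the 2PN values, where 3 reads are 334.6 to 1017 CPM.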
